A study of Mus musculus with 13 samples.

Results

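Secreted inflammatory signals were followed in human breast tumours grown in mice: 11 transcripts of 10 cytokine and chemokine genes, chosen as a fixed list of transcript IDs out of the 244939 transcripts in the files. The list holds 2 transcripts of IL6 and 1 each of CXCL8, CXCL1, CXCL2, CCL2, CSF2, LIF, IL1A, IL1B and IL11, and all 11 were found. The tumours were formed by MDA-MB-231, an established human triple-negative breast cancer cell line, injected into the mammary gland of female NSG mice aged 12 to 13 weeks. NSG mice lack mature T, B and natural killer cells and keep myeloid cells and stroma of the mouse, although the labels name the strain as immunocompetent. A group of 7 vehicle libraries came from mice gavaged every day with 40% DMSO and 60% polyethylene glycol. A group of 6 OCA libraries came from mice gavaged every day with 30 mg/kg of OCA in that solvent. OCA stands for obeticholic acid, a modified bile acid and an agonist of FXR, the bile acid receptor in the nucleus. The series text gives 14 days of growth, and 8 vehicle and 7 OCA mice entered treatment. All 13 tumours carry the same cell line, and no untreated tumour or cultured cell sample was analysed here. The files count reads against human transcripts, and the share of mouse reads among them was not tested.

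Tumour cells of this kind are known to secrete chemokines and cytokines without an outside stimulus. CXCL8, CXCL1 and CXCL2 are chemokines that act on the receptors CXCR1 and CXCR2 and draw neutrophils, and their genes lie in a common cluster. CCL2 draws monocytes through CCR2, and CSF2 encodes GM-CSF, a growth factor of granulocytes and macrophages. IL6, LIF and IL11 signal through the shared receptor subunit gp130 to STAT3. IL1A and IL1B bind the interleukin-1 receptor, which switches on NF-kB, and NF-kB is a known activator of most of the other genes on the list. FXR is known in liver and gut to repress genes driven by NF-kB, which makes these genes a natural place to look in a study of an FXR agonist.

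The vehicle libraries held 34015674 to 49844746 estimated reads and the OCA libraries 44150968 to 50596490. The 3 shallowest were all vehicle libraries (replicates 2, 3 and 5), with at most 37667496 reads. Vehicle replicates 1 and 4 and OCA replicate 2 stood apart from the other 10 libraries on the first principal component of all transcripts. These 3 were also the deepest libraries, with 49844746, 49764198 and 50596490 reads, and the next deepest (OCA replicate 4) held 48186645. Leaving them out therefore also leaves out the deepest libraries, and the part of depth in their position was not tested. The label numbers of the libraries run from 4340 to 4351 (3 vehicle and 4 OCA) and from 4371 to 4385 (4 vehicle and 2 OCA), and what these numbers record is not stated. Estimates of OCA against vehicle that changed sign without some of these libraries are given with and without them. The number of correlated genes is also given without the 3 shallowest and without the 3 that stood apart. The IDs of markers for stroma, endothelium and leukocytes could not be matched to names, so the labelled tissue was not checked against its markers and the part of other cells in the levels below was not tested. In bulk tumours, fewer cells making a cytokine and less RNA per cell cannot be told apart.

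Per unit length, the listed transcripts of CXCL8 and LIF were the most abundant of the 10 genes, and those of CCL2, IL1B and IL1A the least. The scale here is TPM, a share of all transcripts that corrects for transcript length and so allows levels of different genes to be set side by side. CXCL8 (ENST00000307407) had a median of 16.9 TPM over the 13 libraries (5.67 to 25.5) and LIF (ENST00000249075) a median of 16.7 TPM (13.3 to 24.6). CXCL8 was the higher of this pair in 6 of 13 libraries, so their order was not settled. CXCL1 (ENST00000395761) followed at a median of 10.2 TPM (5.96 to 17.5), CSF2 (ENST00000296871) at 7.02 TPM (1.80 to 14.8) and IL11 (ENST00000264563) at 3.71 TPM (0.570 to 7.87). LIF exceeded CXCL1 in 11 of 13 libraries, CXCL1 exceeded CSF2 in 12, and CSF2 exceeded IL11 in 9. CXCL2 (ENST00000508487) had a median of 2.41 TPM (1.35 to 6.12), and the sum of the 2 IL6 transcripts a median of 1.21 TPM (0.371 to 2.70). CXCL2 lay above IL6 in all 13 libraries, the only neighbours in this order that kept their places throughout. Medians of 0.352 TPM for CCL2 (ENST00000225831), 0.261 TPM for IL1B (ENST00000263341) and 0.251 TPM for IL1A (ENST00000263339) closed the order. Neighbours among these 3 exchanged places in 5 and 6 of the 13 libraries. Between every pair of neighbours in the order the ranges over libraries overlapped. These are levels of the listed transcripts, and other transcripts of the same genes are not counted in them.

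**Figure D1:**
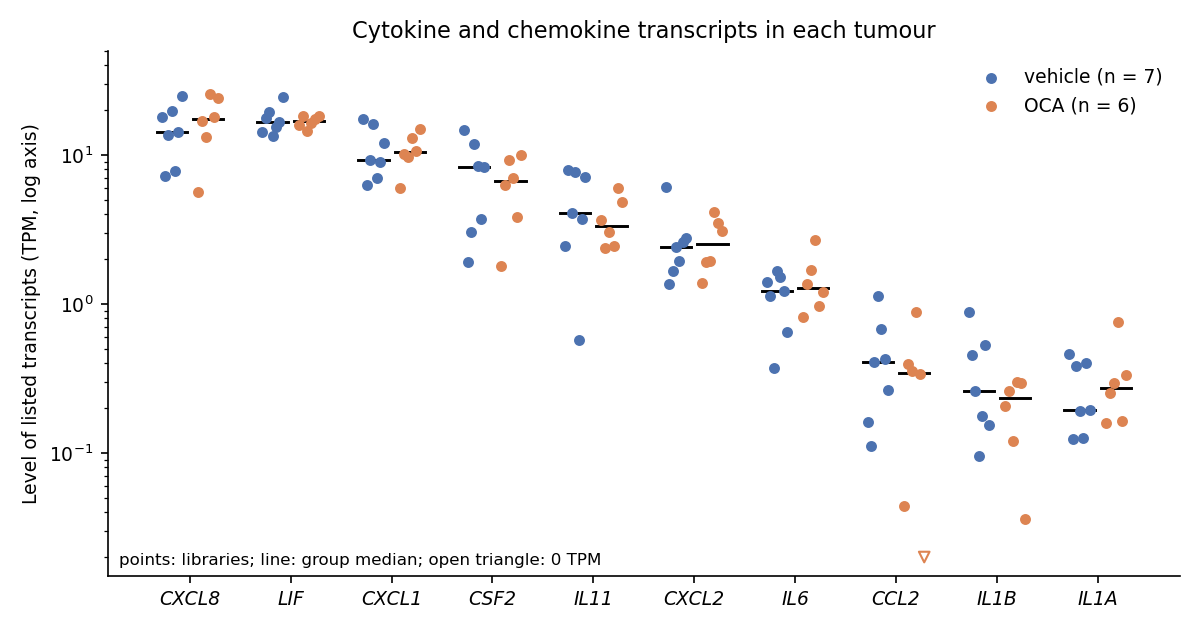
Level of the listed transcripts of each gene in TPM (log axis), with the 2 IL6 transcripts summed. Each point is 1 library, blue for vehicle (n = 7) and orange for OCA (n = 6), black lines are group medians, and the open triangle marks the OCA library with 0 reads of CCL2. Genes run in the order of their medians over all 13 libraries, from 16.9 TPM at the left to 0.251 TPM at the right, and the groups overlap for all 10 genes.

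Of the 11 transcripts, 9 held enough reads for a test of OCA against vehicle, and none of those 9 passed it. Of them, 0 had an adjusted p under 0.05 by edgeR's quasi-likelihood test. Over the whole table, 0 of 74973 tested transcripts (0%) passed that threshold. Without adjustment, 0 of the 9 were under 0.05, where 2.77% of all tested transcripts were (2078). The smallest unadjusted p among the 9 was 0.168, for IL1B. The groups overlapped for all 11 transcripts, while 0.123% of tested transcripts had groups that did not overlap. Of the 9, the estimate was above 0 in 3 and below 0 in 6, with a median log2 fold change of -0.07 against 0.01 over all tested transcripts. Regardless of sign, the median change of the 9 was 0.23 on the log2 scale, against 0.22 for all tested transcripts. CCL2 and the IL6 transcript ENST00000404625 did not pass the filter on low counts and are described by their reads alone. Since a threshold that is missed does not show equal levels, the 95% interval of each fold is given with it below.

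**Figure D2:**
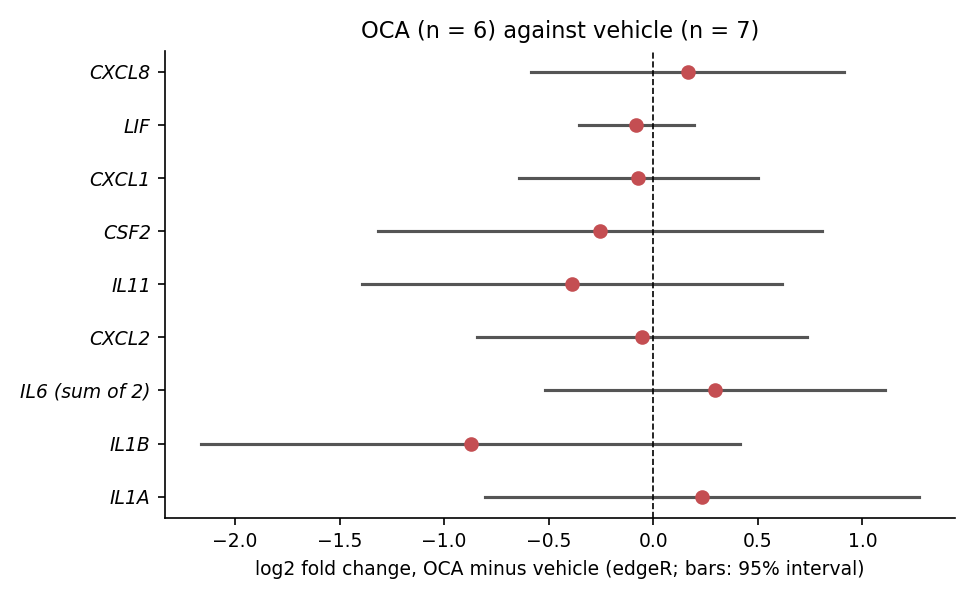
Log2 fold change of OCA minus vehicle for the 8 single transcripts tested outside IL6 and for the sum of the 2 IL6 transcripts, fitted by edgeR on 6 OCA and 7 vehicle libraries. Points are estimates and bars 95% intervals. Every interval includes 0, and the bar is narrowest for LIF and widest for IL1B.

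Among the neutrophil chemokines, CXCL8 measured 10.2 CPM (reads scaled to library size, not to transcript length) in the lowest, 21.2 in the median and 34.8 in the highest vehicle library. In OCA libraries it measured 8.11, 24.5 and 36.0 CPM at the same points. Both groups thus spanned about the same range, and the lowest and the highest of all 13 libraries were OCA tumours (replicates 1 and 4). The means were 24.2 ± 10.4 CPM for OCA (SD, n = 6) against 21.6 ± 8.82 CPM for vehicle (SD, n = 7). The log2 fold change of CXCL8 was 0.16 (SE 0.35, adjusted p = 1 by edgeR), with a 95% interval from 0.667-fold to 1.88-fold. Its sign was not stable. It was -0.17 on the log2 scale without the 3 shallowest vehicle libraries. It was -0.36 within the lower label numbers and 0.80 within the upper ones, and this difference of 1.16 between the 2 series did not pass the test of the interaction (adjusted p = 1 by edgeR).

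CXCL1, also called GRO-alpha, measured 6.00, 9.15 and 16.4 CPM in the lowest, median and highest vehicle library and 5.66, 9.75 and 14.1 CPM in OCA libraries. The 2 highest libraries were vehicle replicates 1 and 4, which belong to the 3 that stood apart on the first component. Its means were 10.0 ± 2.88 CPM for OCA (SD, n = 6) against 10.5 ± 4.03 CPM for vehicle (SD, n = 7), and the fitted log2 ratio was -0.07 (SE 0.26, adjusted p = 1 by edgeR; 95% interval 0.640-fold to 1.41-fold). Leaving out vehicle replicate 1 or 4 turned it to 0.063 or 0.043, and leaving out OCA replicate 1 to 0.052. It was 0.27 in the 10 libraries that did not stand apart, and -0.37 without the 3 shallowest vehicle libraries.

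CXCL2, or GRO-beta, measured 1.20, 2.16 and 5.36 CPM in the lowest, median and highest vehicle library and 1.22, 2.20 and 3.61 CPM in OCA libraries. Vehicle replicate 1 alone set the top of the range, since the next vehicle library measured 2.40 CPM. The log2 fold change of CXCL2 was -0.05 (SE 0.37, adjusted p = 1 by edgeR; 95% interval 0.558-fold to 1.67-fold), from means of 2.33 ± 0.943 CPM for OCA (SD, n = 6) against 2.41 ± 1.38 CPM for vehicle (SD, n = 7). It became 0.27 without vehicle replicate 1, 0.08, 0.03 and 0.03 without OCA replicates 1, 2 and 3, and 0.39 without the 3 libraries that stood apart. Leaving out the 3 shallowest vehicle libraries gave -0.40. CXCL1 and CXCL2 encode closely related proteins. Their estimates were whole numbers of reads in 1 and 0 of 13 libraries, and those of CXCL8, LIF and IL11 in 0 of 13. Whether reads were shared between CXCL1 and CXCL2 was not tested, and such counts cannot decide it.

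The myeloid growth factor CSF2 varied 8.09-fold between its lowest and highest library. It measured 1.06, 4.51 and 8.08 CPM in the lowest, median and highest vehicle library and 0.999, 3.65 and 5.49 CPM in OCA libraries. The log2 fold change was -0.26 (SE 0.49, adjusted p = 1 by edgeR; 95% interval 0.401-fold to 1.75-fold), from means of 3.47 ± 1.69 CPM for OCA (SD, n = 6) against 4.14 ± 2.63 CPM for vehicle (SD, n = 7). Without the 3 libraries that stood apart, 2 of which were the highest for CSF2, the estimate was 0.28. Leaving out the 3 shallowest vehicle libraries gave -0.62. The estimates for CSF2 were whole numbers of reads in all 13 libraries.

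The monocyte chemokine CCL2 was close to the limit of detection. Vehicle replicates 1 to 7 held 4, 2, 8, 28, 12, 10 and 6 estimated reads, and OCA replicates 1 to 6 held 1, 10, 8, 20.7, 8 and 0. Vehicle replicate 4 and OCA replicate 4 were the highest of their groups, and the others overlapped. The 0 reads in OCA replicate 6 allow a level of up to 0.0686 CPM, the level of 3 reads, which covers counting error only. No test of CCL2 is given, since it did not pass the filter on low counts.

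IL6, a cytokine that signals through gp130, was a weak transcript in these tumours, and its reads moved between the 2 listed transcripts. ENST00000258743 alone held reads in 7 of 13 libraries, ENST00000404625 alone in 2 (vehicle replicate 7 and OCA replicate 2), and both held reads in 4. ENST00000258743 ranged from 0 to 73.2 estimated reads in vehicle libraries (median 0.670 CPM) and from 0 to 113 in OCA libraries (median 0.886 CPM). ENST00000404625 was at 0 in 4 of 7 vehicle and 3 of 6 OCA libraries, and reached 52.2 reads in a vehicle and 89.8 in an OCA library. The split did not follow treatment: 4 vehicle and 3 OCA libraries had ENST00000258743 alone, 1 of each group had ENST00000404625 alone, and 2 of each had both. How reads that match both transcripts were divided was not tested, and with so few reads a 0 for one of them does not show its absence. The log2 fold change of ENST00000258743 alone was 0.36 (SE 0.97, adjusted p = 1 by edgeR), with a 95% interval from 0.298-fold to 5.51-fold, and -0.10 without OCA replicate 4.

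**Figure D3:**
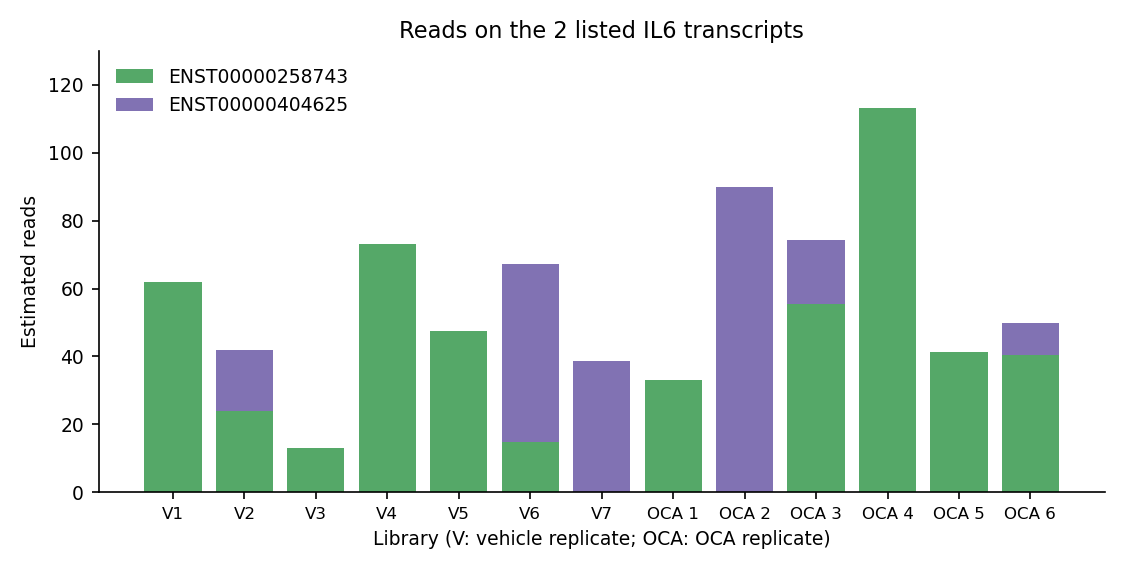
Estimated reads on the 2 listed IL6 transcripts in each library, stacked, with V for vehicle and OCA for OCA replicates. Vehicle replicate 7 and OCA replicate 2 hold reads of ENST00000404625 only, 7 libraries hold reads of ENST00000258743 only, and the totals run from 13.0 to 113 reads.

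Summing the 2 transcripts gave a value with a smaller error. IL6 then measured 0.348, 1.25 and 1.51 CPM in the lowest, median and highest vehicle library and 0.733, 1.35 and 2.40 CPM in OCA libraries. The groups overlapped, and OCA replicates 4 and 2 were the highest of all 13. The means were 1.41 ± 0.629 CPM for OCA (SD, n = 6) against 1.15 ± 0.422 CPM for vehicle (SD, n = 7). The summed log2 fold change was 0.30 (SE 0.38, adjusted p = 1 by edgeR), and its 95% interval narrowed to 0.698-fold to 2.16-fold. The estimate fell to 0.079 without OCA replicate 4 and to 0.14 without vehicle replicate 3.

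LIF, a gp130 cytokine known for keeping cells undifferentiated, gave the most precise comparison. It measured 49.8, 64.8 and 89.2 CPM in the lowest, median and highest vehicle library and 51.6, 61.8 and 67.3 CPM in OCA libraries, on 1998 to 4135 reads per library. The OCA libraries lay inside the vehicle range. Its log2 fold change was -0.08 (SE 0.13, adjusted p = 1 by edgeR), from 61.5 ± 5.92 CPM for OCA (SD, n = 6) against 65.1 ± 13.5 CPM for vehicle (SD, n = 7). The 95% interval of 0.781-fold to 1.14-fold leaves out changes as large as 2-fold in either direction. Without vehicle replicate 7, the highest, the estimate was 0.0051.

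IL11, a gp130 cytokine linked to TGF-beta signalling and bone metastasis of breast cancer, had the widest fold range among the 6 genes above a median of 2 TPM. It measured 1.30, 9.26 and 17.2 CPM in the lowest, median and highest vehicle library and 5.11, 7.18 and 12.9 CPM in OCA libraries. The lowest and the highest of the 13 were both vehicle tumours (replicates 5 and 2), 13.3-fold apart, where CSF2 spanned 8.09-fold. OCA tumours averaged 8.03 ± 3.12 CPM (SD, n = 6) and vehicle tumours 10.5 ± 6.13 CPM (SD, n = 7), and the fitted log2 ratio was -0.39 (SE 0.47, adjusted p = 1 by edgeR; 95% interval 0.381-fold to 1.53-fold). The estimate for IL11 was below 0 in all 28 alternatives, from -0.73 to -0.08, and none passed the threshold.

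Both interleukin-1 genes were found at few reads in every library. IL1A, an alarm signal kept in the cell until damage, held 8 to 64 reads, whole in all 13 libraries. It measured 0.223, 0.350 and 0.826 CPM in the lowest, median and highest vehicle library and 0.289, 0.482 and 1.36 CPM in OCA libraries. OCA replicate 4 was the highest of all 13. The log2 fold change was 0.23 (SE 0.48, adjusted p = 1 by edgeR; 95% interval 0.572-fold to 2.41-fold), and -0.21 without that library.

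IL1B, which is processed by the inflammasome before release, held 2 to 55.7 reads. It measured 0.123, 0.348 and 1.13 CPM in the lowest, median and highest vehicle library and 0.0457, 0.3004 and 0.382 CPM in OCA libraries. The 3 highest libraries were vehicle tumours (replicates 1, 6 and 2), 0 of 6 OCA libraries exceeded the mean of the vehicle group, and the 4 other vehicle libraries lay inside the OCA range. The means were 0.259 ± 0.136 CPM for OCA (SD, n = 6) against 0.476 ± 0.360 CPM for vehicle (SD, n = 7). Its log2 fold change of -0.87 was the largest in size of the 9 and the least certain after the single IL6 transcript (SE 0.60, adjusted p = 1 by edgeR; 95% interval 0.224-fold to 1.33-fold). It was below 0 in all 27 alternatives that held it, from -1.57 to -0.23, and passed the threshold in none. DESeq2 after the low-count filter gave it no adjusted p.

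Spread between tumours of the same group differed widely among the genes. The coefficient of variation of CPM, the SD as a percentage of the mean, was 20.8% in vehicle and 9.63% in OCA tumours for LIF. It was 40.8% and 42.8% for CXCL8, 38.2% and 28.7% for CXCL1, 57.1% and 40.6% for CXCL2, 63.5% and 48.8% for CSF2 and 58.3% and 38.9% for IL11. Over all 47568 transcripts that averaged 1 CPM or more, the medians were 30.9% in vehicle and 26.9% in OCA tumours. LIF lay below these medians in both groups, and the chemokines, CSF2 and IL11 above them. The upper quartiles were 50.9% in vehicle and 45.1% in OCA tumours. CXCL8 and CXCL1 lay below these in both groups, CXCL2 and IL11 above in vehicle only, and CSF2 above in both. The transcripts compared were not matched by level, and LIF averaged 63.4 CPM. For IL6, summed, the values were 36.8% and 44.6%.

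CXCL1 covaried from tumour to tumour with CXCL8, CXCL2 and CSF2, and CXCL8 with CXCL2. Correlations were computed on log2 CPM over the 13 libraries for the 7 genes that averaged 1 CPM or more, with IL6 summed, which gave 21 pairs. By Pearson's r, 4 of 21 pairs passed an adjusted p of 0.05 (permutation test, 100000 resamples, two-sided, Benjamini-Hochberg over the 21 pairs). CXCL8 with CXCL1 gave r = 0.87 (permutation p = 0.00019, adjusted p = 0.00399) and Spearman's rho = 0.89 (permutation p = 0.00018, adjusted p = 0.00378). CXCL1 with CXCL2 gave r = 0.80 (permutation p = 0.00095, adjusted p = 0.00997) and rho = 0.78 (permutation p = 0.00246, adjusted p = 0.0175). CXCL1 with CSF2 gave r = 0.79 (permutation p = 0.00166, adjusted p = 0.0116) and rho = 0.70 (permutation p = 0.00941, adjusted p = 0.0494). CXCL8 with CXCL2 gave r = 0.71 (permutation p = 0.00645, adjusted p = 0.0339) and rho = 0.78 (permutation p = 0.0025, adjusted p = 0.0175). CSF2 with CXCL8 (r = 0.63, permutation p = 0.0207, adjusted p = 0.0725; rho = 0.54, permutation p = 0.0589) and CSF2 with CXCL2 (r = 0.63, permutation p = 0.0202, adjusted p = 0.0725; rho = 0.55, permutation p = 0.0546) missed the threshold.

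**Figure D4:**
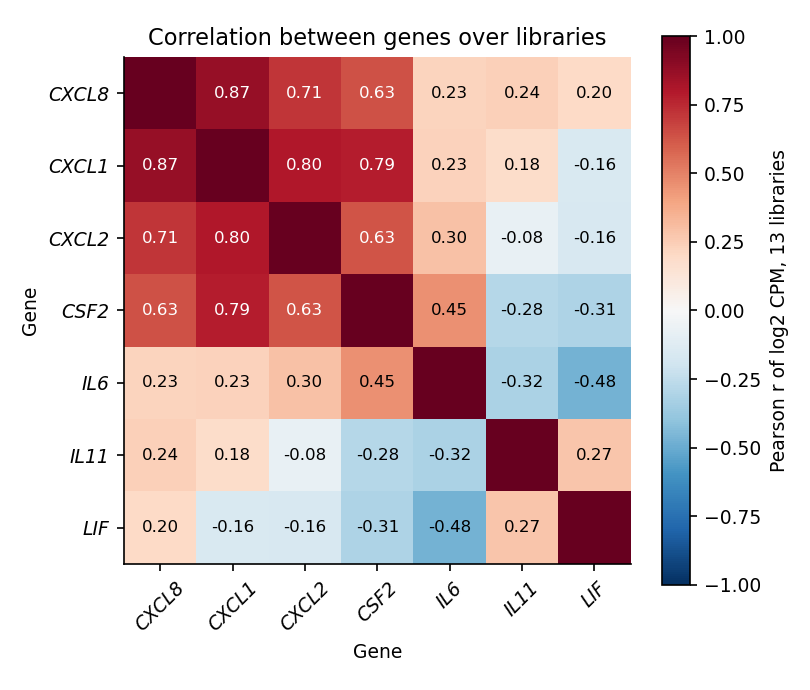
Pearson r of log2 CPM over 13 libraries for each pair of the 7 genes with a mean of at least 1 CPM, from blue (-1) to red (1). The 6 pairs within CXCL8, CXCL1, CXCL2 and CSF2 lie between 0.63 and 0.87, and the other 15 between -0.48 and 0.45.

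The same libraries marked the ends of this range for several genes. OCA replicate 1 was the lowest of the 13 for CXCL8, CXCL1 and CSF2, and vehicle replicate 2 was the lowest for CXCL2 and the next lowest for the other 3. Vehicle replicate 1 was the highest for CXCL1, CXCL2 and CSF2, and OCA replicate 4 was the highest for CXCL8, for summed IL6 and for IL1A. Subtracting the treatment means left the 4 pairs at r = 0.88, 0.80, 0.79 and 0.71 in the order given above (permutation test, adjusted p = 0.00231 to 0.0331). Subtracting the means of the 2 label series left them at 0.88, 0.80, 0.79 and 0.71 (permutation test, adjusted p = 0.00252 to 0.0331). Within groups, r is given as a description with no test. CXCL8 with CXCL1 had r = 0.84 within the 7 vehicle and 0.97 within the 6 OCA libraries, and 0.88 and 0.90 within the 7 of lower and 6 of upper label numbers. CXCL1 with CXCL2 had 0.79 and 0.82 within vehicle and OCA, and 0.66 and 0.89 within lower and upper numbers. CXCL1 with CSF2 had 0.77 and 0.82, and 0.85 and 0.74, in that order. CXCL8 with CXCL2 had 0.60 and 0.86, and 0.86 and 0.61. The pairs that missed the threshold were lower in places: CXCL8 with CSF2 had 0.56 and 0.77, and 0.73 and 0.58, and CXCL2 with CSF2 had 0.75 and 0.44, and 0.34 and 0.85.

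The number of pairs past the threshold changed with the libraries at the ends of the range. Without the 2 libraries farthest from the median of the first gene, r fell to 0.75 for CXCL8 with CXCL1 and 0.50 for CXCL8 with CXCL2 (both without OCA replicate 1 and vehicle replicate 2). For CXCL1 with CXCL2 and CXCL1 with CSF2 it fell to 0.66 and 0.64 (both without OCA replicate 1 and vehicle replicate 1). CXCL8 with CSF2 fell to 0.16 (without OCA replicate 1 and vehicle replicate 2) and CXCL2 with CSF2 to 0.38 (without vehicle replicates 1 and 2). With 11 libraries left, 0 of 21 pairs passed the adjusted threshold (permutation test, smallest adjusted p = 0.142), so no call held without the 2 libraries left out for its pair. These were chosen on the first gene of each pair, so they differed between pairs. Leaving out the extremes of a gene narrows its range, which can itself lower r, so this check cannot tell what lowered it. CXCL8 with IL11 rose from r = 0.24 to 0.69 without OCA replicate 1 and vehicle replicate 2. Vehicle replicate 2 ranked 12 of 13 for CXCL8 and 1 for IL11. Without the same 2 libraries, CXCL8 with CXCL1 had an unadjusted permutation p of 0.00675 (adjusted p = 0.142). Without OCA replicate 1 alone, or vehicle replicate 2 alone, 2 pairs passed. In the 10 libraries that did not stand apart on the first component, 3 pairs passed. These were CXCL8 with CXCL1 (r = 0.97, permutation test, adjusted p = 0.00042), CXCL1 with CXCL2 (r = 0.84, adjusted p = 0.0209) and CXCL8 with CXCL2 (r = 0.87, adjusted p = 0.0177), while CXCL1 with CSF2 did not (r = 0.68, adjusted p = 0.194). As a description with no test, r of log2 CPM with the library total was 0.55 for CXCL1, 0.50 for CXCL8, 0.46 for CXCL2 and 0.36 for CSF2. It was 0.38 for summed IL6, 0.18 for IL11 and -0.31 for LIF. With the first component, r was -0.60 for CXCL1, -0.51 for CSF2, -0.36 for CXCL8 and -0.36 for CXCL2. For summed IL6, IL11 and LIF that value was -0.40, -0.04 and 0.42. Vehicle replicates 1 and 4, the 2 highest for CXCL1 and CSF2, were among the 3 deepest libraries, the same 3 that stood apart on the first component. The 3 shallowest vehicle libraries ranked 12, 9 and 11 of 13 for CXCL8, and OCA replicate 1, the lowest, held 47461177 reads. With the library total regressed out, CXCL8 with CXCL1 stood at r = 0.83, CXCL1 with CXCL2 at 0.73, CXCL1 with CSF2 at 0.76 and CXCL8 with CXCL2 at 0.62 (permutation test, adjusted p = 0.0244, 0.0276, 0.0244 and 0.118). Without those 3 vehicle libraries, 1 pair passed the threshold (CXCL1 with CSF2, r = 0.89, permutation test, adjusted p = 0.0143), and CXCL8 with CXCL1 stood at r = 0.81 (adjusted p = 0.0670).

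**Figure D5:**
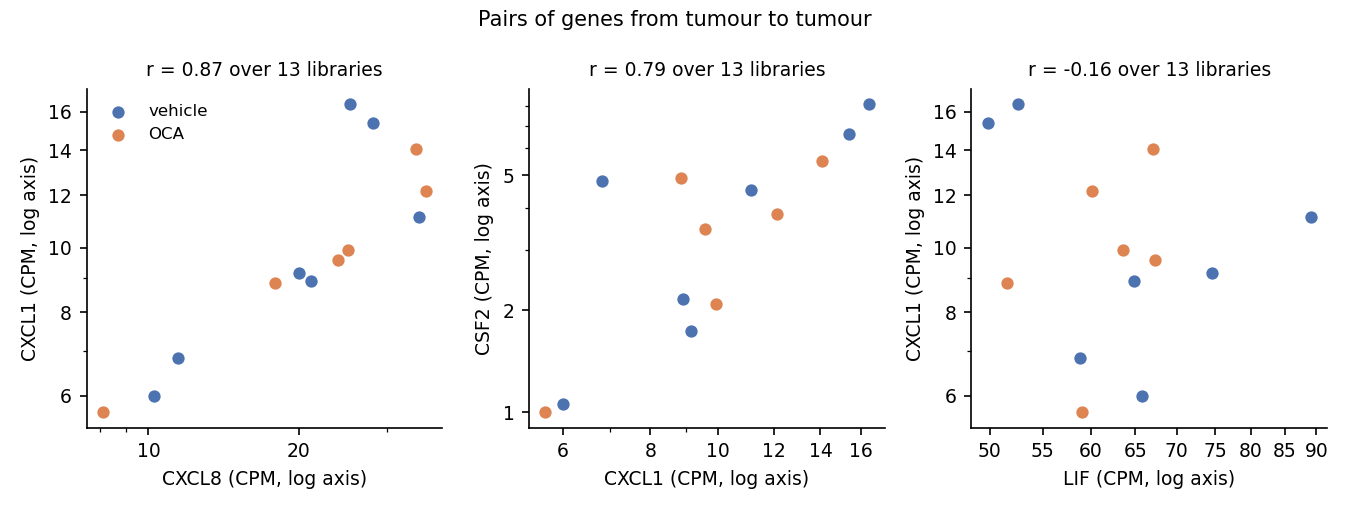
CXCL1 against CXCL8, CSF2 against CXCL1, and CXCL1 against LIF, in CPM on log axes, 1 point per library, blue for vehicle and orange for OCA. The first 2 panels climb from OCA replicate 1 at the lower left (r = 0.87 and 0.79), with the groups interleaved, and the last shows no common trend (r = -0.16).

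As a description of how unusual such likeness is in these libraries, CXCL1 was ranked by its r with CXCL8 among the 47562 other transcripts at that level. Only 10 of them (0.0210%) had a higher r with CXCL8, and 3 (0.00631%) had a higher r with CXCL1 than CXCL8 did. For CXCL1, 37 transcripts lay above CXCL2 and 54 above CSF2, while the median r of all transcripts with CXCL1 was -0.01. For CXCL8, 281 lay above CXCL2 and 782 above CSF2. The 47562 transcripts were not matched to the listed genes by level, so these ranks are a rough guide only. All points share their library, its depth and its scaling, and reads shared between CXCL1, CXCL2 and related transcripts could move their values together; that part was not tested. CSF2, whose estimates were whole in all 13 libraries, had r = 0.79 with CXCL1, and 0.68 in the 10 libraries that did not stand apart. That pair cannot show whether reads were shared between CXCL1 and CXCL2.

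Over all 13 libraries, the gp130 cytokines did not follow the chemokines, nor each other, beyond the threshold. Outside the 6 pairs of chemokines and CSF2, the 15 other pairs had r from -0.48 to 0.45, and the smallest adjusted p among them was 0.306 (permutation test, over 21 pairs). LIF was most like IL11 (r = 0.27, permutation p = 0.354, adjusted p = 0.584; rho = 0.25, permutation p = 0.405), and summed IL6 was most like CSF2 (r = 0.45, permutation p = 0.118, adjusted p = 0.309; rho = 0.38, permutation p = 0.202). IL6 with LIF had the lowest value, r = -0.48 (permutation p = 0.102, adjusted p = 0.306; rho = -0.38, permutation p = 0.196). These values also moved with the libraries used. Without OCA replicate 1 and vehicle replicate 2, CXCL8 with IL11 had r = 0.69 (permutation p = 0.0227, adjusted p = 0.181). That r was above the 0.50 of CXCL8 with CXCL2 without the same libraries. IL6 with IL11 had r = -0.19 within vehicle and -0.80 within OCA libraries, as a description with no test. Whether these correlations differ from those of the chemokines was not tested. CCL2, IL1A and IL1B held too few reads to enter.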

How the data were processed

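Estimated counts of reads and TPM per human transcript were deposited by the authors for each of 13 libraries, per the file headers. Per the submitters' processing notes, FastQC, STAR, Salmon and DESeq2 were used with the build GRCh38.p14; versions and transcript annotation are not given in the sources used here. Estimated counts were rounded. The files do not pair IDs with names, and the reference tables, of the mouse, hold 0 human transcript IDs, so member names came with the list of IDs, and receptors, inhibitors, regulators and cell markers were not analysed here. Members and lists were chosen with earlier results of these data known. All 11 members are named; the most alike gene is that with the highest r.

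Transcripts were filtered by filterByExpr (minimum count 10, total 15), scaled by TMM and tested with edgeR 4.0.16 (robust quasi-likelihood F test, two-sided, Benjamini-Hochberg over 74973 transcripts, threshold 0.05). DESeq2 1.42.0 and limma 3.58.1 were alternatives. The SE is the log2 fold change divided by the square root of F. CPM uses TMM-scaled totals, and logarithms a prior count of 2. Whole means within 0.0005 reads. Scripts were tested on simulated data. Libraries were taken as separate mice, numbered in accession order. Between libraries, r of log2 CPM was 0.703 to 0.799 over 78 pairs (47568 transcripts), and none looked deposited again. Whether libraries came from separate mice is not labelled beyond their numbers; p-values measure the spread between them. Depth was 34015674 to 50596490 reads per library.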

Additional observations from a re-analysis of the deposited data

Results flagged for a closer look

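In 3 of 24 tests of CPM within a group, 1 library lay far from the others (Dixon's test, 95% level). Chance alone would give about 1.2 if values were normal and the tests independent. IL6 entered as each of its 2 transcripts and as their sum, so not all tests were independent, and normality was not tested. CXCL2 in vehicle replicate 1 measured 5.36 CPM, against 1.20 to 2.40 CPM in the 6 other vehicle libraries. IL1A in OCA replicate 4 measured 1.36 CPM, against 0.289 to 0.595 CPM in the 5 other OCA libraries. The IL6 transcript ENST00000404625 in OCA replicate 2 measured 1.77 CPM, against 0 to 0.404 CPM in the others. Summed with ENST00000258743, IL6 in that library was no longer far from the rest.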

How the results depend on the processing

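No member passed the threshold, adjusted or not, in 27 alternatives (tools, scalings, filters, label series, libraries left out). With DESeq2 after the filter, CSF2, CXCL2, IL1A, IL1B and ENST00000258743 had no adjusted p, so only their unadjusted p was compared. A filter at a mean of at least 1 CPM left IL1A, IL1B and ENST00000258743 untested. The count over all transcripts rose from 0 to 12 with DESeq2 after the filter, 410 with DESeq2 without it and 1 without the 3 libraries apart on the first component, and was 0 to 1 with each library left out (1 without vehicle replicate 7 or OCA replicate 6); the cause was not tested. Signs of small estimates turned, on the log2 scale. Within the upper label series, CSF2 was 0.19, CXCL1 0.30, LIF 0.10 and the IL6 transcript ENST00000258743 -1.003. Within the lower series, CXCL2 was 0.047 and CXCL8 -0.36. Without the 3 libraries apart, CSF2 was 0.28, CXCL1 0.27 and CXCL2 0.39. With the same libraries out, CXCL8 (0.31), LIF (-0.23) and ENST00000258743 (1.14) kept their sign. Without the 3 shallowest vehicle libraries, CXCL8 was -0.17. CSF2 (-0.62), CXCL1 (-0.37) and CXCL2 (-0.40) then lay further below 0 than with all libraries. Leaving out each library gave CXCL1 -0.19 to 0.063, CXCL2 -0.22 to 0.27, IL1A -0.21 to 0.40, ENST00000258743 -0.10 to 0.62 and LIF -0.14 to 0.0051. IL11, IL1B and summed IL6 kept their sign in every alternative that held them, summed IL6 from 0.079 to 0.47.

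The 4 pairs of genes past the threshold became 0 without the 2 libraries farthest from the median of each pair's first gene, which differed between pairs. They became 1 without the 3 shallowest vehicle libraries (added after seeing the data, as was the regression on library total). With each library left out they were 2 to 5, the fewest without vehicle replicate 2 or OCA replicate 1. The 6 pairs of CXCL8, CXCL1, CXCL2 and CSF2 kept r above 0 in 21 alternatives, at the lowest 0.16 for CXCL8 with CSF2 and 0.38 for CXCL2 with CSF2. No paired analysis was possible because the labels give no shared replicate numbers. With all 13 libraries, the 95% intervals left out a 2-fold change in either direction for LIF, CXCL1, CXCL8 and CXCL2 and included it for CSF2, IL11, summed IL6, IL1A and IL1B. Intervals with fewer libraries were not computed, and CXCL8 reached 0.80 within the upper series. CCL2, IL1A, IL1B and IL6 held the fewest reads.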
